A study of Mus musculus with 2 samples.

Results

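The genes described here are 32 glycolysis and hypoxia-response genes, chosen by name. They comprise 16 enzymes of the glycolytic chain from hexokinase to lactate dehydrogenase, 4 genes of glucose or lactate transport and flux control (Slc2a1, Slc16a3, Pdk1, Pfkfb3) and 12 genes known as targets of the hypoxia-inducible factors (HIF). All 32 were on the array, as 58 probes among 27827 gene names, and the brightest probe stood for each gene. Their expression was measured in mouse prostaspheres, balls of epithelial cells grown from single cells in Matrigel, on 2 two-colour Agilent arrays that set Sox9-expressing against Sox9-deleted RNA. Sox9 is a transcription factor of epithelial progenitors and cartilage.

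On the first array, the genotype comparison, tamoxifen (TAM)-treated wild type prostaspheres were labelled with Cy5 and TAM-treated ER-Sox9flox/flox prostaspheres with Cy3. On the second, the treatment comparison, ER-Sox9flox/flox prostaspheres given vehicle carried Cy5 and ER-Sox9flox/flox prostaspheres given TAM carried Cy3. In the ER-Sox9flox/flox line both Sox9 alleles are floxed, and TAM activates a Cre expressed from the Rosa26 locus, which is not confined to 1 cell type. All 4 RNAs were of C57/Bl6J background, from urogenital sinus (UGS) taken at 16 days post conception according to the labels, although the study's methods describe prostaspheres from adult prostate. All received dihydrotestosterone, for 6 days before and through the 6 days of TAM (5 µM) or vehicle. Whether the wild type cells carried the Cre, and how many animals or cultures each RNA stands for, is not given in the sources used here. The labels call both RNAs of the treatment comparison Sox9 null, so there the treatment told them apart.

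Every ratio below is the log2 of Cy5 over Cy3, that is Sox9-expressing over Sox9-deleted RNA, so 1 is 2-fold higher with Sox9. The source names call the Cy5 RNAs SOX9 and the Cy3 RNAs Ctrl; read as naming the deleted RNA, they would turn every sign. The brightest Sox9 probe had ratios of 2.69 and 2.37, the direction that genotype and treatment give, while the dimmest of its 3 probes averaged -1.11. Between 53.9% and 56.2% of the 41174 probes were well above background in each RNA. Each comparison is 1 array, so a difference between the comparisons has no test, and the limma p-values measure the spread of 2 arrays that hold different contrasts. No dyes were swapped, so a dye bias of a probe and a response to Sox9 cannot be told apart. Genotype cannot be told apart from mouse line in the first comparison, nor Sox9 loss from TAM exposure in the second. As the RNAs are bulk, fewer cells of a type and less RNA per cell cannot be told apart either.

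Glycolysis splits glucose into pyruvate, and cells short of oxygen, as well as many growing cells, turn that pyruvate into lactate in place of burning it in mitochondria. The HIF proteins, dimers of an oxygen-labile alpha subunit such as Hif1a or Epas1 with Arnt, bind the core letters ACGTG or GCGTG near their targets and raise most glycolytic enzymes together with genes for pH control, vessel growth and collagen hydroxylation. Prolyl hydroxylases of the Egln family mark the alpha subunit for destruction through Vhl when oxygen is present.

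Because the members share a known regulator, the core letters were sought in the 250 bases before the transcription start, on both strands. RefSeq windows (GRCm38.p6) were matched for 31 of the 32 members, all except Ndrg1, with Pkm2 listed as Pkm and Ero1l as Ero1a. In the first listed window of each gene, ACGTG or GCGTG (or their reverse complements CACGT and CACGC) occurred in 24 of 31 members, or 77.4%, against 38.6% of 27025 genes. ACGTG occurred in 54.8% of members and 16.6% of genes, and GCGTG in 51.6% and 28.2%. The members' windows were richer in G and C, with a median of 62.8% against 52%, and the part of base composition in these shares was not tested. A match is a description of letters and shows no binding. 6 windows are printed, each 5′ to 3′ on the strand of the gene with the core letters in capitals. Pdk1 (chr2:71872974-71873223, plus strand), Car9 (chr4:43506776-43507025, plus strand) and Pgk1 (chrX:106186850-106187099, plus strand) are the members with the highest mean ratios. Slc16a3 (chr11:120948817-120949066, plus strand) and Egln3 (chr12:54203875-54204124, minus strand) differed most between the comparisons, and Eno2 (chr6:124769674-124769923, minus strand) is the lowest of the members that were lower in both.
Pdk1: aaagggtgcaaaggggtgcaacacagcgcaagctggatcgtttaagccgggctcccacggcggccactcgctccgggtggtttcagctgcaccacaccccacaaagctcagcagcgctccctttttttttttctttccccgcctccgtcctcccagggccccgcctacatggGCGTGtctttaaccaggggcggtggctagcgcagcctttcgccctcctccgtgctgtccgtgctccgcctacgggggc
Car9: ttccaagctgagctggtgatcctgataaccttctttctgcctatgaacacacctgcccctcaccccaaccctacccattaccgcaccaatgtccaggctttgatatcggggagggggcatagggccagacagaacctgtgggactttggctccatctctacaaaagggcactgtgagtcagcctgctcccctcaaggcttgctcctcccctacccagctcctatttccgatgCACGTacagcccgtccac
Pgk1: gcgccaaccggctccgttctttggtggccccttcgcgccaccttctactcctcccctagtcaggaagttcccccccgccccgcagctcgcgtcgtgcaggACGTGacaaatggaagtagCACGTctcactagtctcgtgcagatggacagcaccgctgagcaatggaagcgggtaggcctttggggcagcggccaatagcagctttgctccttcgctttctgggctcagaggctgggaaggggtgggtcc
Slc16a3: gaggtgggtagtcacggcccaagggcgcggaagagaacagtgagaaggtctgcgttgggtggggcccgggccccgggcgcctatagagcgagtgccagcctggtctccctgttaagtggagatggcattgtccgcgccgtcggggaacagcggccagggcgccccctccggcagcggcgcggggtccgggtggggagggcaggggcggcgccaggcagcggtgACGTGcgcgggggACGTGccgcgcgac
Egln3: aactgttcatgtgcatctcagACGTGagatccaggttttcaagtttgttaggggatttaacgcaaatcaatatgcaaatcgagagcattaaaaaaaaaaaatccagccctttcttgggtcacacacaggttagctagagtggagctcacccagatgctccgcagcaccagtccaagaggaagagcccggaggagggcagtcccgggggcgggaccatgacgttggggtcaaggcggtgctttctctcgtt
Eno2: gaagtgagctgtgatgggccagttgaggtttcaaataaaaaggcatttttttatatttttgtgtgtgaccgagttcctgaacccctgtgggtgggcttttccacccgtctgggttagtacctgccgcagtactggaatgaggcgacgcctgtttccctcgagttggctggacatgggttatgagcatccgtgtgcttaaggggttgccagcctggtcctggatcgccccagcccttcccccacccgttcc
Pdk1 held 1 GCGTG, Car9 and Egln3 1 ACGTG each, Pgk1 and Slc16a3 2 ACGTG each, and Eno2 neither.

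Glycolysis and hypoxia-response genes were mostly higher in the Sox9-expressing RNA in the treatment comparison. In the genotype comparison the shift was small. There 13 of 16 glycolytic enzymes were higher (median 0.08), against a background of 47.8%. So were 6 of 12 HIF response genes (median -0.06) and 2 of 4 transport and flux genes (median 0.10), both counts near that background. Of the 32 members, 20 were higher in both comparisons (background 33.8% of 15131 tested genes), and 3, all glycolytic enzymes, were lower in both (background 33.7%). A further 8 were lower in the genotype and higher in the treatment comparison (background 18.4%), and Vegfa alone did the opposite (background 14.0%). Counted singly, 21 members were higher in the genotype comparison (background 47.8%) and 28 in the treatment comparison (background 52.3%). The median log2 ratio of the members was 0.07 in the genotype and 0.36 in the treatment comparison, against -0.01 and 0.01 over all tested genes. All 32 members were well above background in all 4 RNAs, so none entered through one group alone.

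By size, the treatment comparison held most of the signal. There 12 members were at least 1.5-fold higher with Sox9 (background 5.02%) and none at least 1.5-fold lower (background 2.03%). Pdk1, Car9, Slc16a3 and Bnip3 were at least 2-fold higher (background 1.73%). In the genotype comparison only Ddit4 and Pdk1 were at least 1.5-fold higher (background 2.1%) and only Egln3 at least 1.5-fold lower (background 3.52%). The ratio was larger in the treatment comparison for 28 of 32 members (background 51.3%), the exceptions being Ddit4, Ndrg1, Vegfa and Hk2. In the genotype comparison no member was 2-fold higher (background 0.588%) and Egln3 alone was 2-fold lower (background 1.08%). No member was 2-fold higher in both comparisons (background 0.377%) or 2-fold lower in both (background 0.159%).

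No member passed the limma test of the mean of both arrays after Benjamini-Hochberg adjustment over all 22731 tested probes (background 0.0132%). At an unadjusted p under 0.05, 11 members were higher (background 10.5%) and 2, Eno2 and Hk1, were lower (background 9.07%). The methods' t-test on the same 2 values called 1 higher and none lower, and none after adjustment. Its share over all tested genes is not given. The call depended on the dye normalization. With each array centred on its median in place of loess, the median over all tested genes itself became 0.02 and 0.42, and Aldoc, Car9, Ddit4, Ldha, Pdk1, Pgk1 and Slc16a3 passed the adjusted test, against a background of 2.81% of genes.

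**Figure D1:**
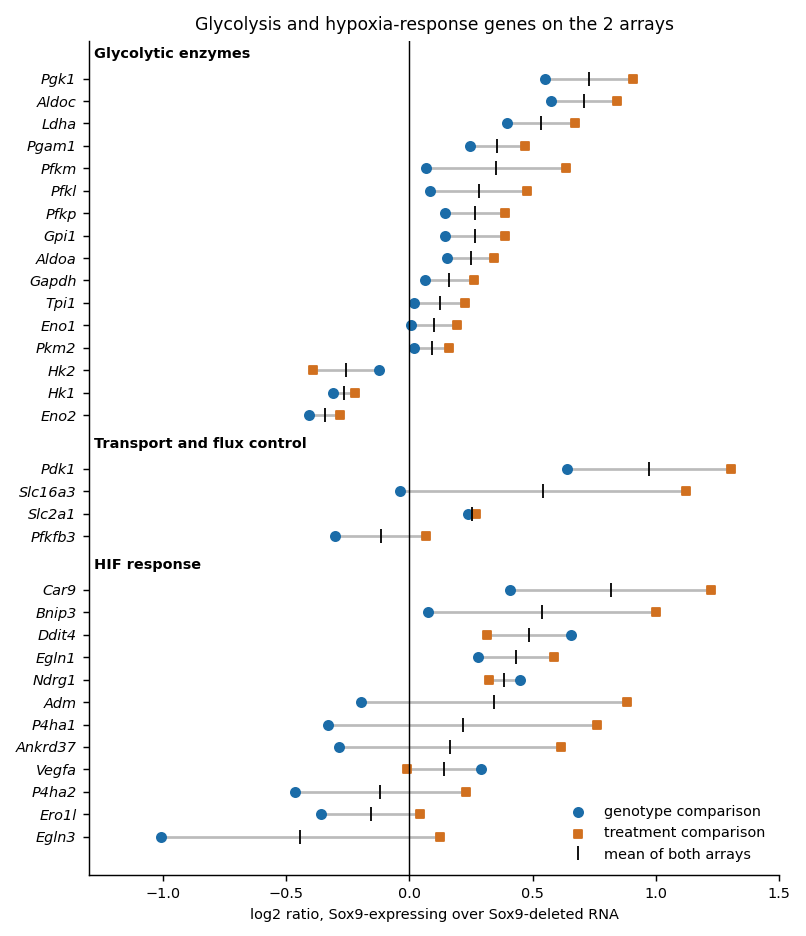
Log2 ratio (horizontal axis, Sox9-expressing over Sox9-deleted RNA) of each of the 32 members (rows, by role and then by mean), with circles for the genotype comparison, squares for the treatment comparison and a black tick for the mean of both arrays. 20 members lie right of 0 on both arrays, 3 glycolytic enzymes lie left of 0 on both, and the widest gaps between circle and square belong to Slc16a3, Egln3, P4ha1 and Adm.

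Glucose entry and its first trapping steps did not move as a block. Slc2a1, the widely expressed glucose transporter, had ratios of 0.24 and 0.27, the closest match between comparisons of any transport or flux gene. The hexokinases, which phosphorylate glucose and hold it in the cell, were instead lower with Sox9. Hk1, the constitutive form, had a normalized brightness of 5087 in wild type TAM and 6307 in its floxed TAM partner, and of 4973 in floxed vehicle and 5801 in its floxed TAM partner. Its ratios were -0.31 and -0.22, a mean of -0.27 ± 0.06 (SD, n = 2 arrays), with a limma adjusted p of 0.230. Of its 4 other tested probes 3 were lower on average and 1 stood at 0.03. Hk2, the inducible form and a known HIF target, read 3149 and 3427 on the first array and 2512 and 3297 on the second, for ratios of -0.12 and -0.39 (adjusted p = 0.311). Both Sox9-expressing RNAs were thus below both deleted RNAs for each hexokinase, but with median centring the mean ratios turned to 0.13 and 0.09, below the shift of the median gene. Gpi1, which isomerises the phosphorylated glucose, was higher, at 0.14 and 0.39.

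The phosphofructokinase subunits, the enzyme of the committed step, were higher in both comparisons. Pfkm, the muscle form, had ratios of 0.07 and 0.64. Pfkl, the liver form, had 0.08 and 0.48, and Pfkp, the platelet form, 0.14 and 0.39. In all 3 the genotype ratio was under 0.15 and the treatment ratio carried the mean, with adjusted p from 0.291 to 0.363. For Pfkm the brightness was 749, 714 and 658 in the RNAs from TAM-treated spheres and 1024 in floxed vehicle. Pfkfb3, which makes the sugar bisphosphate that activates phosphofructokinase, had no settled direction. Its brightest probe gave -0.30 and 0.07, while its 2 other probes averaged 0.23 and 0.28.

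Among the enzymes that cleave the sugar and carry it to the first ATP, Aldoc and Pgk1 stood highest. Aldoc, the aldolase typical of brain and a known HIF target, had a brightness of 691 in wild type TAM against 464 in its partner, and of 759 in floxed vehicle against 423. The mean of its ratios, 0.58 and 0.84, was 0.71 ± 0.19 (SD, n = 2 arrays), with the lowest limma adjusted p of any member, 0.128; its second probe averaged 0.14. Aldoa, the ubiquitous aldolase, had 0.15 and 0.34, with a second probe at 0.59, and turned to -0.08 with the scanner software's processed signals. The pair of isozymes thus pointed the same way here, and which of them was higher depended on the probe.

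Pgk1, the kinase that makes the first ATP of the pathway, had the highest mean ratio of the 16 glycolytic enzymes. It read 18023 and 12298 in the genotype comparison and 22137 and 11797 in the treatment comparison. Both Sox9-expressing RNAs were well clear of both deleted ones, which lay within a few percent of each other. The ratios of 0.55 and 0.91 had a mean of 0.73 ± 0.25 (SD, n = 2 arrays) and an adjusted p of 0.141. Its probe was printed on 10 spots, between which the SD of the ratio was 0.0359 and 0.0448, far below the gap between the arrays, and a second probe averaged 0.75. Over the alternatives tried its adjusted p ran from 0.00121 with median centring to 0.294. Tpi1 and Gapdh, which act just before Pgk1, had smaller ratios, of 0.02 and 0.23, and of 0.06 and 0.26; Tpi1 stood at -0.0048 with the scanner software's signals.

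The last steps to pyruvate varied with the enzyme. Pgam1, the phosphoglycerate mutase, was higher at 0.24 and 0.47 (adjusted p = 0.210). The enolases pointed in opposite directions. Eno1, the ubiquitous form, had 0.01 and 0.19, close to no difference. Eno2, the neuronal form, was dimmer with Sox9 in both comparisons, at 250.1 against 332 and 291 against 354. Its mean was -0.34 ± 0.09 (SD, n = 2 arrays; adjusted p = 0.190), its second probe averaged -0.36, and it kept a negative mean under every alternative, with -0.12 the nearest to 0. Pkm2, the pyruvate kinase, had 0.02 and 0.16, and its 2 other probes averaged -0.10 and 0.18, so the probes disagreed in sign.

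At the branch between lactate and mitochondria, Ldha and Pdk1 were higher in the Sox9-expressing RNA in both comparisons. Ldha, the lactate dehydrogenase subunit that favours lactate, read 21504 and 16358, then 25265 and 15874, for ratios of 0.39 and 0.67 (adjusted p = 0.163). A second Ldha probe gave 0.09 and 0.49. Pdk1, the kinase that switches off pyruvate dehydrogenase, had the highest mean of all members. It read 503 in wild type TAM against 323, and 802 in floxed vehicle against 325. These are 1.56-fold and 2.47-fold, a mean log2 ratio of 0.97 ± 0.47 (SD, n = 2 arrays; adjusted p = 0.164, and 0.000839 to 0.294 over the alternatives). The Pdk1 levels of both deleted RNAs were nearly equal, both expressing RNAs lay above them, and a second probe averaged 0.80. Slc16a3, the exporter of lactate, behaved otherwise. It read 2262 in wild type TAM and 2323 in its partner, nearly equal, against 4753 in floxed vehicle and 2183 in floxed TAM, giving -0.04 and 1.12 (adjusted p = 0.432).

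Of the 12 HIF response genes, 5 were higher in both comparisons, a share not far from the background of 33.8%. A further 6 were lower in the genotype and higher in the treatment comparison (background 18.4%). Vegfa was higher in the genotype comparison alone (background 14.0%). Car9, a cell-surface carbonic anhydrase that disposes of acid and one of the most hypoxia-responsive genes known, had the highest mean among the 12. It was dim, at 170.0 and 128 in the first pair and 267 and 114 in the second, where the brightness scale includes an offset of 50 that shrinks the ratio. Its ratios of 0.41 and 1.23 averaged 0.82 ± 0.58 (SD, n = 2 arrays; adjusted p = 0.220), and 2.13 was the highest mean under any alternative. Bnip3, which promotes removal of mitochondria, resembled Slc16a3, with 1889 and 1794 in the genotype pair and 3235 and 1616 in the treatment pair (ratios 0.07 and 1.00).

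Ddit4, Ndrg1 and Vegfa were the HIF response genes with larger ratios in the genotype comparison. Ddit4, an inhibitor of mTORC1 signalling that also responds to other stresses, read 44298 against 28103 and 30469 against 24487, for ratios of 0.66 and 0.32 (mean 0.49 ± 0.24, SD, n = 2 arrays; adjusted p = 0.191). Ndrg1, a stress- and differentiation-responsive gene, read 4384 against 3214 and 3497 against 2795 (ratios 0.45 and 0.32, adjusted p = 0.177). In Ddit4 and Ndrg1 both expressing RNAs exceeded both deleted ones, and the wild type TAM RNA was the brightest of the 4, as it was for 4 members in all, with Pgam1 and Vegfa (background 26.9%).

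The secreted factors of vessels did not follow each other. Adm, a vasodilator peptide, read 737 in wild type TAM, 845 and 881 in the floxed TAM RNAs and 1626 in floxed vehicle, for ratios of -0.20 and 0.88. Vegfa, the main vessel growth factor, had 0.29 and -0.01 by its brightest probe. A Vegfa probe printed on 10 spots gave -0.22 and -0.33, and the mean of all its probes was -0.04. The Vegfa direction thus depended on the probe, and whether the probes read different transcripts was not tested.

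The oxygen-sensing feedback genes differed from each other. Egln1, the main HIF prolyl hydroxylase, was higher in both comparisons by its brightest probe, at 0.28 and 0.59 (adjusted p = 0.203). Its second probe gave -0.07 and 0.29, so the direction in the genotype comparison depended on the probe. Egln3, the isozyme most induced by HIF, had the lowest ratio of any member. It read 367 in wild type TAM against 739 in floxed TAM, 2.01-fold lower, and 801 in floxed vehicle against 736. The 3 RNAs of the floxed line read alike and the wild type RNA alone was low (ratios -1.01 and 0.12, adjusted p = 0.499).

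By their brightest probes, the enzymes of protein and collagen maturation among the HIF genes were lower in the genotype and higher in the treatment comparison. P4ha1, a catalytic subunit of collagen prolyl 4-hydroxylase, read 1317 and 1656 in the first pair and 2605 and 1535 in the second (ratios -0.33 and 0.76). P4ha2, its isozyme, had -0.47 and 0.23, and Ero1l, an oxidase for disulfide formation in the endoplasmic reticulum, -0.36 and 0.04. The treatment ratio of Ero1l was slight, and its second probe was lower in both comparisons, at -0.10 and -0.07. Ankrd37, a small HIF target of little known function, was also lower in the genotype and higher in the treatment comparison. It read 325 and 396 against 626 and 408 (ratios -0.29 and 0.62). The means of these 4 genes lay between -0.16 and 0.22, with adjusted p from 0.558 to 0.775, and with median centring those of P4ha2 and Ero1l turned positive, at 0.23 and 0.11.

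Set side by side over the 4 RNAs, the members were not alike. In 20 members both Sox9-expressing RNAs were brighter than both deleted RNAs (background 27.0%), and 13 of these were glycolytic enzymes. The gap was wide in Pdk1, Pgk1, Aldoc and Ldha, but the count goes by order alone and some gaps were slight. Gapdh read 11076 in wild type TAM against 11070 in floxed TAM on the treatment array. Eno1 read 1136 in wild type TAM against 1129 in floxed TAM on the genotype array. The floxed vehicle RNA was the brightest of the 4 for 23 members (background 31.7%), and for 7 it was at least 1.5-fold above each of the 3 RNAs from TAM-treated spheres (background 1.97%). Those 7 were Slc16a3 (2.05-fold over the next highest), Adm (1.85), Bnip3 (1.71), Pdk1 (1.60), P4ha1 (1.57), Car9 (1.57) and Ankrd37 (1.53), of which Pdk1, Car9 and Bnip3 are also among the 20. None of the 16 glycolytic enzymes was among them, a count near the background share of 1.97%. The 3 hexokinase and enolase genes lower in both comparisons, Hk1, Hk2 and Eno2, had both expressing RNAs below both deleted ones (background 26.3%). The wild type TAM RNA was the dimmest of the 4 for 8 members, 6 of them HIF response genes (background 26.4%). For Slc16a3 the 3 RNAs from TAM-treated spheres lay within 1.06-fold of each other, whatever their Sox9 state, and for Bnip3 within 1.17-fold. Levels set across arrays rest on the quantile step that gave both arrays one brightness distribution, and the effects of vehicle, of Sox9 in the floxed line and of that 1 culture cannot be told apart.

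**Figure D2:**
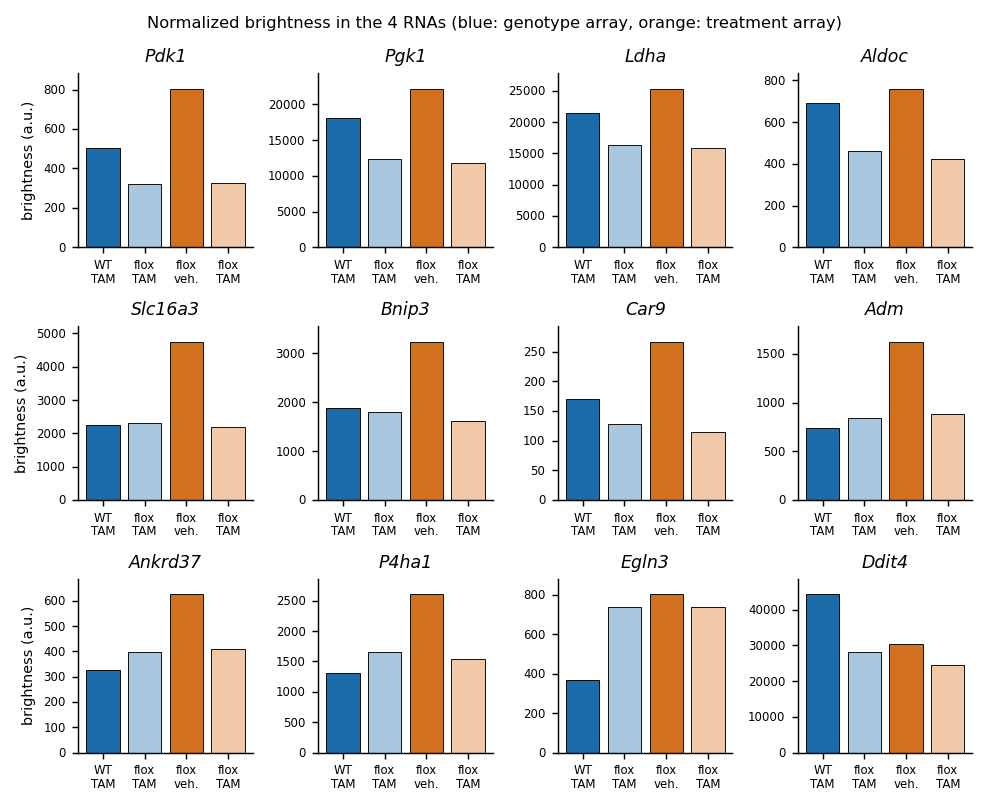
Normalized brightness (vertical axes from 0, arbitrary units, offset of 50 included, a scale of its own for each gene) of 12 members in the 4 RNAs, each bar 1 RNA with no replicate: wild type TAM, floxed TAM on the genotype array, floxed vehicle, floxed TAM on the treatment array. Pdk1, Pgk1, Ldha and Aldoc are above both deleted RNAs in both dark bars, Slc16a3 and Bnip3 are high in floxed vehicle alone (4753 and 3235), and Egln3 is low in wild type alone (367).

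Stromal and skeletal muscle markers moved with the split between the comparisons. The 9 stromal markers, all well above background in all RNAs, had a median ratio of -0.77 in the genotype and 0.85 in the treatment comparison, and their summed brightness was 35885 in wild type TAM, 61498 and 55521 in the floxed TAM RNAs and 92382 in floxed vehicle. The 6 tested of 7 skeletal muscle markers had medians of -0.83 and 1.51, with sums of 1875, 3056, 2494 and 6784 in the same order, and Ckm, Myog, Tnnt3 and Myh3 were not well above background in wild type. All 6 tested muscle markers and 8 of 9 stromal markers were lower in the genotype and higher in the treatment comparison, while Dcn was lower in both. By their brightest probes, P4ha1, P4ha2, Ankrd37, Adm, Ero1l, Egln3, Slc16a3 and Pfkfb3 also were lower in the first and higher in the second. Pdk1, Pgk1, Aldoc, Ldha, Car9 and Ddit4 did not, being higher in both comparisons, as was Bnip3. All of these except Ddit4 still had the larger ratio in the treatment comparison. The excess was 0.93 in Bnip3, 0.81 in Car9 and 0.67 in Pdk1, and smaller in Pgk1, Aldoc and Ldha. The part of stromal or muscle cells in the members' ratios was not tested. All 8 epithelial markers were well above background in every RNA, with sums of 450183, 275478, 314165 and 380204 in that order, so the labelled epithelial type had its markers. Their ratios moved too, with medians of 0.25 and 0.28 and 5 of 8 higher in both comparisons. The basal markers Krt5 (2.13 and 1.91), Krt14 (2.07 and 1.86) and Trp63 (1.65 and 1.55) were past 2-fold in both, the direction of the 20 members higher in both. The luminal keratins Krt8 (0.01 and -0.74) and Krt18 (-0.28 and -1.01) were the lowest by mean. Krt18 and Cdh1 (-0.31 and -0.32) were lower in both comparisons. The keratin Krt19 (0.05 and 0.18) and Epcam (0.46 and 0.37) were higher in both. The part of a shift among epithelial cells in the members' ratios was not tested. Endothelial sums lay between 1103 and 1808 with Pecam1 and Tek not well above background, and immune sums between 618 and 858 with Ptprc and Cd3e not well above it. The 3 tested endothelial markers had medians of -0.12 and -0.10. Emcn, the brightest of them, had -0.37 and 0.34, the signs of most stromal markers. Cdh5 (-0.12 and -0.16) and Kdr (0.08 and -0.10) did not have those signs. Of the 2 tested immune markers, Cd68 was lower in both comparisons (-0.69 and -0.77) and Csf1r was not (0.03 and -0.12).

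**Figure D3:**
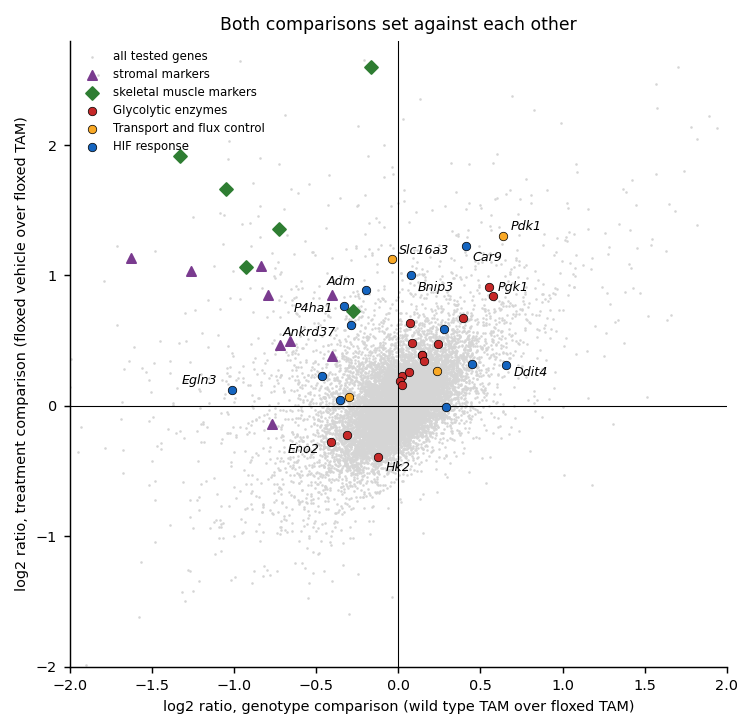
Log2 ratio in the treatment comparison (vertical axis) against the genotype comparison (horizontal axis), both Sox9-expressing over Sox9-deleted, for all 15131 tested genes (grey, with 32 genes outside the axes), the members by role and 2 marker lists. Most glycolytic enzymes lie in the upper right, where both ratios are above 0, while 6 HIF response genes lie in the upper left with most stromal and all 6 skeletal muscle markers.

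Genes beside the members in the same pathways had treatment medians closer to 0. Of 16 tested among 25 further glycolytic genes, mostly isozymes and transporters, 2 were higher in both comparisons, 7 lower in both and 7 lower in the genotype and higher in the treatment comparison, with medians of -0.11 and 0.04. The highest were Slc2a4, the insulin-responsive glucose transporter (1.00 and 0.74), and Ldhb, the lactate dehydrogenase subunit that favours pyruvate (0.15 and 0.56). The lowest were Pfkfb4, a relative of Pfkfb3 (-0.25 and -0.41), and Slc2a3, the neuronal glucose transporter (-0.25 and -0.29). Eno3 and Pgam2, the muscle isozymes of enolase and mutase, chosen after their values were seen, had -1.09 and 1.48, and -0.66 and 0.90, the signs of the muscle markers.

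The components of oxygen sensing had a narrower range of ratios than the HIF response members, from -0.16 to 0.36 against -1.01 to 0.66 in the genotype comparison and from -0.25 to 0.41 against -0.01 to 1.23 in the treatment comparison. Of 17 tested among 18 HIF pathway components, 8 were higher and 2 lower in both comparisons, with medians of 0.05 and 0.10. Hif1a, the main oxygen-labile subunit, had -0.14 and 0.41, Epas1, its relative, -0.03 and 0.10, Arnt, their partner, 0.26 and 0.14, and Vhl, which leads them to destruction, -0.05 and 0.22. These are transcript levels, and HIF activity is set largely on the protein, which was not measured. Highest and lowest by mean were Crebbp, a coactivator (0.36 and 0.10), with Arnt, and Rbx1 (-0.13 and -0.17) with Tceb2 (-0.16 and -0.08), parts of the Vhl ubiquitin ligase. Probes disagreed here: the 2 other tested probes of Rbx1 averaged 0.14 and 0.20, that of Arnt -0.08, and those of Crebbp -0.12 and 0.24.

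Further HIF targets were divided. Of 39 tested among 41 listed, 11 were higher in both comparisons, 10 lower in both and 14 lower in the genotype and higher in the treatment comparison, that is 28.2%, 25.6% and 35.9% against backgrounds of 33.8%, 33.7% and 18.4%. Car12, a carbonic anhydrase like Car9, was the only gene of the metabolic and HIF lists past 2-fold in both, at 2.04 and 1.83 (adjusted p = 0.0627). Fam162a, a mitochondrial HIF target, had 0.89 and 1.31. At the other end were Hilpda, a lipid droplet protein strongly induced by hypoxia, at -0.82 and -0.76, and Hmox1, which degrades heme, at -0.54 and -0.52. Known HIF targets thus stood at both ends.

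Neighbouring carbon metabolism stayed near the median gene. Of 26 pyruvate and TCA enzymes 11 were higher and 5 lower in both comparisons, with medians of 0.00 and 0.07. Suclg2 (0.21 and 0.59) and Mdh1 (0.18 and 0.44), a succinate-CoA ligase subunit and the cytosolic malate dehydrogenase, were highest. The succinate dehydrogenase subunits Sdhd (-0.25 and -0.20) and Sdhb (-0.10 and -0.18) were lowest. Of 8 pentose phosphate genes, which feed on the same sugar phosphates, 3 were higher and 2 lower in both (medians -0.10 and 0.03). Rpe (0.15 and 0.29, with a second probe averaging -0.12) and Tkt (0.14 and 0.03) were highest there, and Rpia (-0.42 and -0.19) and H6pd (-0.67 and 0.39) lowest.

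**Figure D4:**
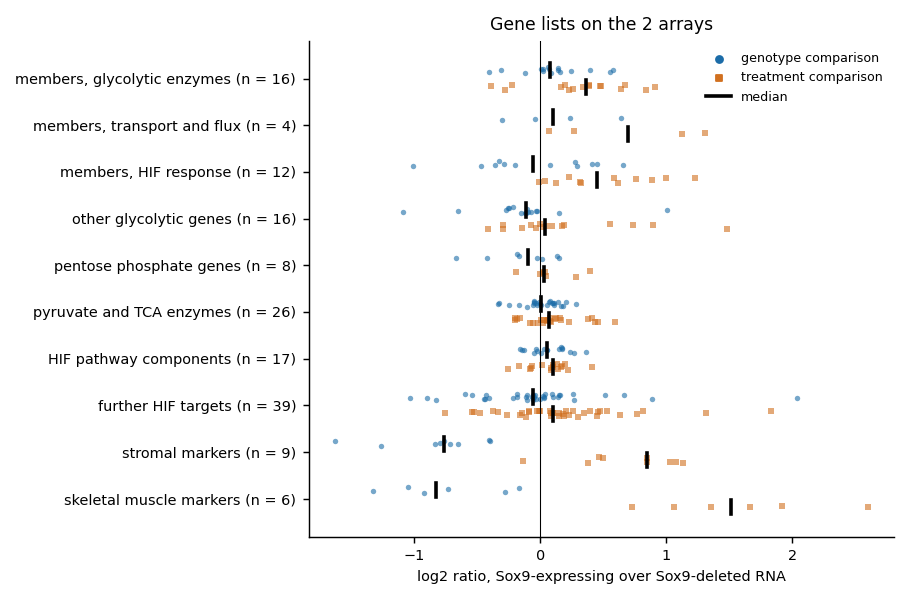
Log2 ratios (horizontal axis, Sox9-expressing over Sox9-deleted RNA) of the tested genes of each list (rows, with the number of genes), circles for the genotype and squares for the treatment comparison, and black bars for the medians. The members' treatment medians lie between 0.36 and 0.70, those of the other metabolic and HIF lists at or below 0.10, and the stromal and muscle markers fall on opposite sides of 0 in the 2 comparisons.

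Of the 32 members, 16 had more than 1 tested probe, and 18 of their 24 other probes had the sign of the brightest one. The 6 of opposite sign belonged to Hk1, Pfkfb3, Pkm2 and Vegfa. Several glycolytic enzymes, Gapdh and Pgk1 among them, have processed copies elsewhere in the genome, and what such copies add to a probe's signal was not tested.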

How the data were processed

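Total RNA of 4 prostasphere preparations was amplified, labelled and hybridised to 2 whole-mouse Agilent arrays on 1 slide, read in 1 scan. The deposited intensity values (mean spot signal, median local background and processed signal) and the deposited log10 ratios were made with Agilent Feature Extraction 10.5.1.1 per the file headers, and the authors' processed table held log2 ratios, for which the submitters' processing notes name limma. The scale and direction of that table were checked against the scanner values; its centring is not stated.

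The main values were computed with limma 3.58.1 in R 4.3.3. Mean signals were background-corrected by normexp with an offset of 50 and normalized by loess within each array, with control spots at weight 0 and outlier spots left out. Spots of 1 probe were averaged. Brightness is the linear value after loess and quantile scaling of average intensity between arrays, and is comparable between RNAs of 1 probe, not between probes. Of 41174 probes, 22731 that were well above background in Cy5 on both arrays or Cy3 on both were tested by lmFit and eBayes, mean of both arrays against 0, two-sided, with Benjamini-Hochberg adjustment. The brightest tested probe stood for a gene. The number of arrays limits the precision.

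Members and lists were chosen with earlier results of these data known, so their counts are descriptions beside the share of all tested genes. Genes given in full were members at least 1.5-fold changed in either comparison, the 5 highest and 5 lowest by mean and the isozyme groups; from the other metabolic and HIF lists, the 2 highest and 2 lowest by mean and Hif1a, Epas1, Arnt and Vhl; and from these and the epithelial markers, genes past 2-fold the same way in both comparisons. Alternatives were median centring, an offset of 10, no background subtraction, the scanner software's signals, the authors' table, scaled arrays, 2 other filters, the mean of a gene's probes, each array alone, and the methods' t-test.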

Additional observations from a re-analysis of the deposited data

Results flagged for a closer look

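Genes whose ratio had opposite signs in the genotype and the treatment comparison are listed here, with the difference as treatment minus genotype log2 ratio. Each comparison is 1 array, so none of these differences was tested. Among the members, Slc16a3 differed by 1.16, Egln3 by 1.13, P4ha1 by 1.09, Adm by 1.08, Ankrd37 by 0.90, P4ha2 by 0.69, Ero1l by 0.40 and Pfkfb3 by 0.37, all lower in the genotype and higher in the treatment comparison. Vegfa differed by -0.30, the opposite way. Pfkfb3 and Vegfa had other probes of another sign, and the second probe of Ero1l was lower in both comparisons, at -0.10 and -0.07. Outside the members, H6pd differed by 1.06, Hif1a by 0.56, Vhl by 0.27 and Epas1 by 0.14, all lower in the genotype and higher in the treatment comparison. Of the 9 stromal markers 8, all except Dcn, and all 6 tested skeletal muscle markers were likewise lower in the genotype and higher in the treatment comparison, and their part in the differences was not tested.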

How the results depend on the processing

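With median centring, the median over all tested genes became 0.02 and 0.42. The members' median was then 1.06 in the treatment comparison and 0.62 in the mean. In this setting 7 members passed the adjusted test (background 2.81%), 22 were higher and 0 lower at an unadjusted p under 0.05, and 0 were lower in both comparisons. The means of Hk1, Hk2, Pfkfb3, P4ha2 and Ero1l turned to 0.13, 0.094, 0.19, 0.23 and 0.11. In the other lists 15 HIF pathway components and 18 pyruvate and TCA enzymes were then higher in both, and 2 other glycolytic genes, 3 further HIF targets and 0 pentose phosphate, HIF pathway or pyruvate and TCA genes lower in both. Apart from the adjusted test, the share of all tested genes with median centring is not given for these counts. They therefore cannot be told apart from the shift of the median gene. The scanner software's signals gave 6 members higher and 1 lower at an unadjusted p under 0.05, 1 past 2-fold in both, 4 pentose phosphate genes lower in both, and means of -0.080 for Aldoa and -0.0048 for Tpi1. Scaled arrays left 1 member lower at an unadjusted p under 0.05, as did the mean over a gene's probes, which also gave 1 HIF pathway component lower in both and turned Pfkfb3 to 0.13 and Vegfa to -0.041. The methods' t-test called 1 higher and 0 lower. Without a filter 4 other glycolytic genes were higher in both. For the counts under these other settings the share of all tested genes is not given either. A change in the members cannot be told apart there from a change over all genes.

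Taking each array alone, 0 to 4 members were past 2-fold higher, 0 to 1 past 2-fold lower, and 4 to 11 lower. Higher were 2 to 9 of the other glycolytic genes, 3 to 6 pentose phosphate genes, 15 to 25 further HIF targets and 13 to 19 pyruvate and TCA enzymes. Lower were 7 to 14, 2 to 5, 14 to 24 and 7 to 13 of the same lists, and 5 to 6 HIF pathway components. The cause of these shifts was not tested. Each ratio pairs the 2 RNAs of 1 array. No further pairing was fitted, and a block for slide and scan could not be fitted with 1 of each. Dim members such as Car9 lie close to the offset, which limits their ratios.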
